A study of Homo sapiens with 4 samples.

Results

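A group of 10 p53-linked stress genes was followed across 4 RNA sequencing libraries of A549, an established human lung carcinoma cell line that keeps functional p53. They encode the sestrins SESN1, SESN2 and SESN3, the mTORC1 inhibitor DDIT4, the AMPK beta subunits PRKAB1 and PRKAB2, the autophagy kinase ULK1, and the autophagy and mitochondrial quality genes DRAM1, TP53INP1 and SPATA18. The 10 genes were chosen by symbol, out of 42113 gene models in the files, and all 10 were among the 12742 measured genes, those averaging 30 or more normalized counts over the 4 libraries. The libraries came from cells with a stable lentiviral short hairpin RNA (shRNA) against LIMA1 given nutlin-3a at 10 µM, cells with a negative control shRNA given the same dose, untreated LIMA1 shRNA cells and untreated control shRNA cells. RNA was taken at 24 h. All 4 populations carry a lentivirus, and the labels do not say whether each line is a pool or a clone, or how many hairpins were used. LIMA1 encodes EPLIN, an actin-binding protein, and nutlin-3a frees p53 from its ubiquitin ligase MDM2. The comparison of interest is between the nutlin-3a responses with LIMA1 shRNA and with control shRNA.

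Each group is 1 library, so there is no error between replicates, no test was made and every difference compares libraries. The 4 libraries held 15.2, 15.8, 16.5 and 16.7 M fragments, in the order in which the groups are listed above. CDKN1A, a standard p53 target, was at 48106 normalized counts in LIMA1 shRNA cells and 34078 in control shRNA cells with nutlin-3a, and at 1178 in LIMA1 shRNA cells and 1066 in control shRNA cells without it. LIMA1 was at 133 normalized counts in LIMA1 shRNA cells and 866 in control shRNA cells with nutlin-3a, and at 68.3 in LIMA1 shRNA cells and 416 in control shRNA cells without it. Transcripts typical of the line were present in all 4 libraries, such as the keratin KRT8 at 67927 to 82811 normalized counts, while the blood marker PTPRC and the fibroblast marker DCN did not exceed 0.943. Of the other fibroblast, endothelial and epithelial markers, COL1A1 reached 70.7 and PECAM1 4.71, and EPCAM ranged between 31.1 and 229. Values are the deposited normalized fragment counts, which are not divided by gene length. In all 4 libraries the values of the 10 genes were whole numbers of fragments to within 0.1, so none showed fragments divided between gene models.

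Sestrins are stress-induced proteins that hold back the growth kinase complex mTORC1, in part by binding GATOR2, a complex that signals amino acid supply. AMPK, a kinase of catalytic alpha, scaffold beta and regulatory gamma subunits, senses low cellular energy, restrains mTORC1 and phosphorylates ULK1, the kinase that starts autophagy. p53 is known to switch on several of these genes, and SESN2 and DDIT4 are also known targets of ATF4, the transcription factor of the integrated stress response.

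With nutlin-3a, a log2 difference of 1 or more was seen for 5 of the 10 genes in LIMA1 shRNA cells and 6 of 10 in control shRNA cells, while 0 of 10 reached -1 in either line. Among all measured genes, 7.29% reached 1 and 6.08% reached -1 in LIMA1 shRNA cells (13.4% together), against 5.54% and 5.64% in control shRNA cells (11.2% together). The median difference of the 10 genes was 1.10 in LIMA1 shRNA cells and 1.53 in control shRNA cells, against -0.022 and -0.017 for all measured genes. SESN1, PRKAB1, DRAM1, TP53INP1 and SPATA18 reached 1, called higher here, in both lines. SESN2 was called higher in control shRNA cells and fell short of 1 in LIMA1 shRNA cells, and of the 10 genes it had the widest gap between the 2 responses.

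**Figure D1:**
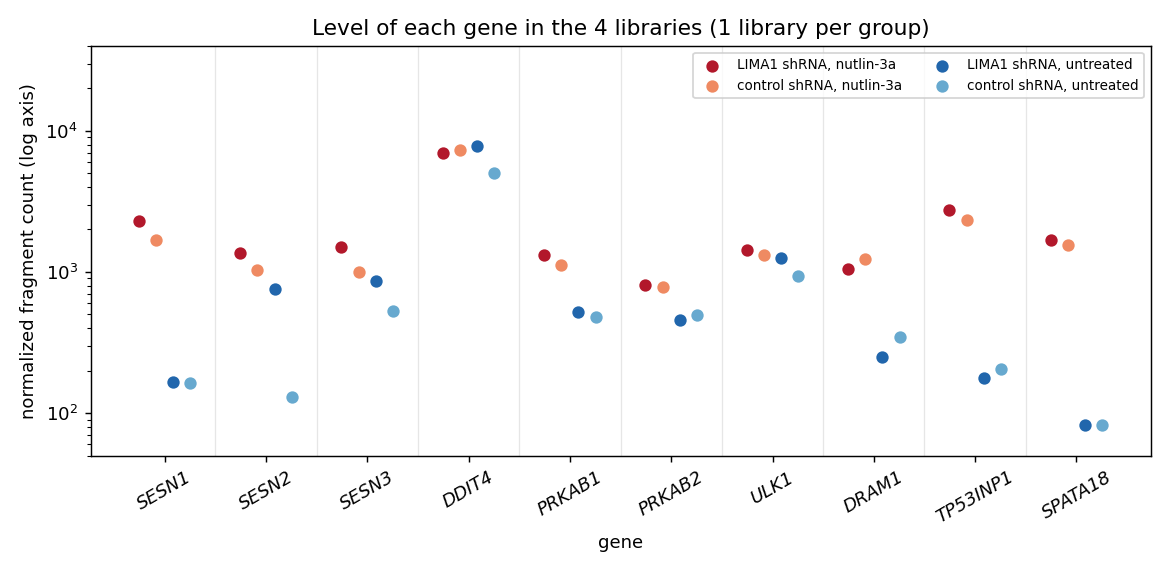
Normalized fragment counts (log axis) of the 10 genes in the 4 libraries, 1 point per library, with nutlin-3a libraries left of untreated ones. SPATA18, TP53INP1 and SESN1 separate the treatments most widely, DDIT4 stays between 4990.1 and 7781, and untreated control shRNA cells have the lowest SESN2 value, 129.

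Differences are between log2(normalized count + 1) values, a scale that understates the change of low genes. Parentheses hold 95% intervals, by the Clopper-Pearson method from both fragment counts or, for the response difference, by a normal approximation. They reflect the counting of reads without molecular identifiers and hold nothing of the variation between cultures.

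SESN1, the sestrin first found as a p53 target, was at 2305 normalized counts with nutlin-3a and 165 untreated in LIMA1 shRNA cells, and at 1686 with nutlin-3a and 164 untreated in control shRNA cells. Both nutlin-3a libraries lay far above both untreated ones, and the untreated pair was almost level. The nutlin-3a difference was 3.79 (3.57 to 4.04) in LIMA1 shRNA cells and 3.35 (3.14 to 3.59) in control shRNA cells. These were the 70th and 75th highest of the 12742 measured genes. Between lines, SESN1 was higher in LIMA1 shRNA cells by 0.45 (0.36 to 0.54) with nutlin-3a. In untreated cells the difference was 0.011 (-0.30 to 0.33), and its sign turned under 3 other library scalings.

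SESN2, a sestrin that acts as a leucine sensor, had 1357 normalized counts with nutlin-3a and 756 untreated in LIMA1 shRNA cells, and 1035 with nutlin-3a and 129 untreated in control shRNA cells. The untreated control shRNA library was low, and the other 3 were high. With nutlin-3a the gene was higher by 0.84 (0.71 to 0.98) in LIMA1 shRNA cells and by 2.99 (2.74 to 3.27) in control shRNA cells. In control shRNA cells this is a ratio of 8.02 (6.70 to 9.65). LIMA1 shRNA cells exceeded control shRNA cells by 0.39 (0.27 to 0.51) with nutlin-3a and by 2.54 (2.29 to 2.82) untreated, the 20th highest of all measured genes. The response difference, LIMA1 shRNA less control shRNA, was -2.15 (-2.44 to -1.86), the 29th lowest of 12742.

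On the linear scale the SESN2 level of LIMA1 shRNA cells with nutlin-3a lay closer to a sum than to a product of the separate differences. The excess with nutlin-3a was 601 normalized counts in LIMA1 shRNA cells and 906 in control shRNA cells, and the excess with LIMA1 shRNA in untreated cells was 627. Adding the excess of untreated LIMA1 shRNA cells to the nutlin-3a level of control shRNA cells gives 1662, multiplying the ratios gives 6061, and 1357 was measured. The same sums were made for 3 other genes. SESN3, at 1515, lay nearer its product of 1635 than its sum of 1337, DDIT4, at 6922, lay below its sum of 10078 and its product of 11362, and ULK1, at 1426, lay below its sum of 1639.8 and its product of 1773.

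SESN3, the sestrin known as a FOXO target, measured 1515 normalized counts with nutlin-3a and 859.9 untreated in LIMA1 shRNA cells, and 1006 with nutlin-3a and 529 untreated in control shRNA cells. The 4 libraries formed a ladder in which nutlin-3a and LIMA1 shRNA each went with a higher value. The nutlin-3a difference was 0.82 (0.69 to 0.94) in LIMA1 shRNA cells and 0.93 (0.78 to 1.08) in control shRNA cells, just under the size for a call. LIMA1 shRNA cells were higher by 0.59 (0.47 to 0.71) with nutlin-3a and by 0.70 (0.55 to 0.86) untreated. The response difference of -0.11 (-0.30 to 0.08) had an interval that spans 0.

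Per length, the order of SESN1 and SESN2 differed between libraries. Divided by the longest basic protein-coding transcript of GENCODE 29, SESN1 had 657 and SESN2 393 normalized counts per kb in LIMA1 shRNA cells with nutlin-3a, and 480.4 and 300 in control shRNA cells with nutlin-3a. In untreated LIMA1 shRNA cells SESN1 had 47.1 and SESN2 219 per kb, whereas untreated control shRNA cells had 46.7 for SESN1 and 37.4 for SESN2. SESN2 was thus above SESN1 in untreated LIMA1 shRNA cells and below it in the other 3 libraries, with the longest or the median transcript length. The place of SESN3 depends on which length is used (9558 nt for the longest transcript, 1710 nt for the median), so it is not ranked.

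The upstream sequences of SESN1, SESN2 and DDIT4 are shown because SESN1 differed widely with nutlin-3a in both lines, whereas SESN2 and DDIT4 also differed between untreated lines. They are the 250 bases before a RefSeq transcription start on GRCh38.p14, another build than the hg19 of the files. The SESN1 window, on chromosome 6 and the minus strand at chr6:109008989-109009238, belongs to the most downstream of 3 annotated starts. The SESN2 window lies on chromosome 1, plus strand, at chr1:28259268-28259517, and the DDIT4 window on chromosome 10, plus strand, at chr10:72273674-72273923. Capitals mark the matched motifs named in the next paragraph.
SESN1: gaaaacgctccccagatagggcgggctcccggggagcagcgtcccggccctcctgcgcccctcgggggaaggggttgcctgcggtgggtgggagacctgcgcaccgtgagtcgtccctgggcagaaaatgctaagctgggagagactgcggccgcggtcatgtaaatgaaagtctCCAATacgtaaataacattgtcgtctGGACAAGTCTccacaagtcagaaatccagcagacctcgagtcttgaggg
SESN2: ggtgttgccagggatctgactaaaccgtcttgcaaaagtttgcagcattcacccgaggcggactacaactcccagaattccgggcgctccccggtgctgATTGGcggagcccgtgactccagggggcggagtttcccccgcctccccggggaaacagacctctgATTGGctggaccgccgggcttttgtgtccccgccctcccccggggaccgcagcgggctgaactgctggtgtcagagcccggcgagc
DDIT4: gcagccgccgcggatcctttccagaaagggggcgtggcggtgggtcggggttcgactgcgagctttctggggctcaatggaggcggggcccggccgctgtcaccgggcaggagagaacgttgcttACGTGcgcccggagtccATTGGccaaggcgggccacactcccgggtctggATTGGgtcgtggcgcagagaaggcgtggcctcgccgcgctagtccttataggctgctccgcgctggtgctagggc

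A set of 6 motifs was searched on both strands. These were the p53 decamer, the ATF4 composite element core TGATGNAA, the hypoxia element core ACGTG, the E-box CACGTG that holds that core, the FOXO element GTAAACA and the CCAAT box, printed as ATTGG where it lies on the other strand. The p53 decamer matched 1 of the 11 windows available for 9 of the 10 genes, at SESN1, as GGACAAGTCT from position -49 to -40 of that start. It was present in 5.57% of 35116 RefSeq windows of the same length. The SESN1 window printed above is the one with this match, and the SESN1 windows not printed had none. CCAAT was found in the SESN2 window at 2 places, in the DDIT4 window at 2 places, in 2 SESN1 windows and in the PRKAB2 window, against 32.0% of all windows. ACGTG was found at DDIT4, where 18.5% of all windows hold it. The ATF4 element, the E-box and the FOXO element (3.14%, 6.34% and 2.98% of all windows) had no match. A match is a string of letters in this window and not a measured binding site, and a missing match says nothing of sites elsewhere. TP53INP1 had no entry.

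DDIT4 encodes REDD1, which restrains mTORC1 through the TSC complex. It was at 6922 normalized counts with nutlin-3a and 7781 untreated in LIMA1 shRNA cells, and at 7287 with nutlin-3a and 4990.1 untreated in control shRNA cells. As for SESN2, the untreated control shRNA library was the low one, but untreated LIMA1 shRNA cells had the highest value of the 4. The nutlin-3a difference was -0.17 (-0.22 to -0.12) in LIMA1 shRNA cells and 0.55 (0.50 to 0.60) in control shRNA cells, so its sign differed between lines. LIMA1 shRNA cells differed from control shRNA cells by -0.074 (-0.12 to -0.026) with nutlin-3a and by 0.64 (0.59 to 0.69) untreated. The response difference was -0.71 (-0.78 to -0.65), the 239th lowest of the measured genes. DDIT4 had the highest level per kb of the 10 genes in each library, with either transcript length. An antisense gene model, DDIT4-AS1, overlaps it in GENCODE 29. Whether counting used strand was not given in the sources used here, so reads from the 2 strands cannot be told apart.

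**Figure D2:**
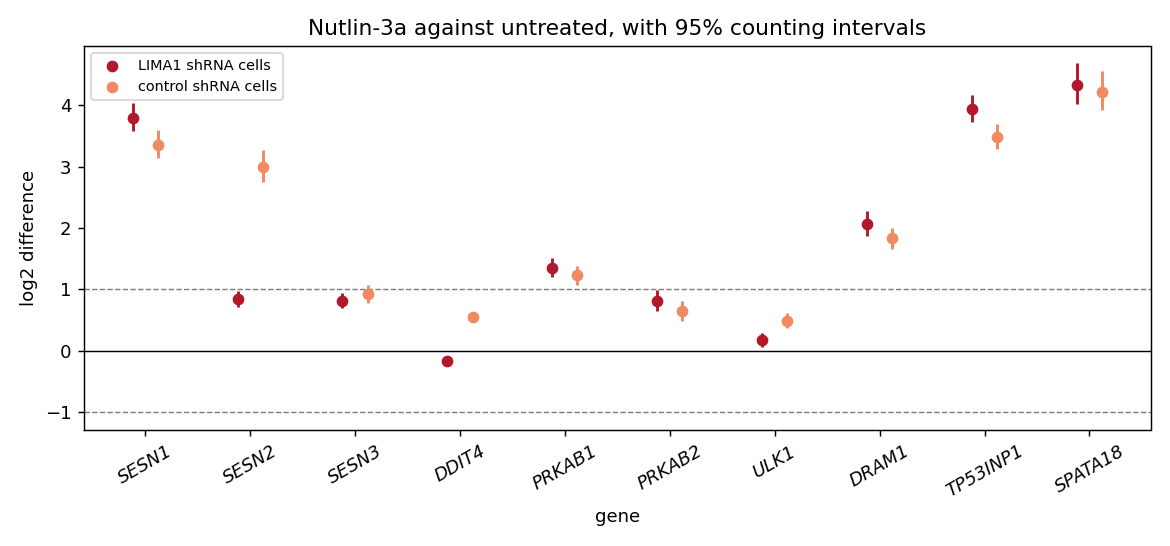
Log2 difference between nutlin-3a and untreated cells for each gene, in LIMA1 shRNA cells (dark red, left) and control shRNA cells (orange, right), with 95% counting intervals as vertical lines and dashed lines at 1 and -1. The gap between lines is widest at SESN2 (0.84 and 2.99) and DDIT4 (-0.17 and 0.55), followed by TP53INP1 (3.94 and 3.49), SESN1 (3.79 and 3.35) and ULK1 (0.18 and 0.49).

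PRKAB1 encodes the beta 1 scaffold subunit of AMPK. Its values were 1326 normalized counts with nutlin-3a and 518 untreated in LIMA1 shRNA cells, and 1129 with nutlin-3a and 482 untreated in control shRNA cells. Both nutlin-3a libraries were more than 2-fold above their untreated partners, at ratios of 2.56 (2.31 to 2.84) in LIMA1 shRNA cells and 2.34 (2.11 to 2.61) in control shRNA cells. The differences were 1.36 and 1.23, and the response difference was 0.13 (-0.08 to 0.34). LIMA1 shRNA cells were higher by 0.23 (0.12 to 0.35) with nutlin-3a and by 0.10 (-0.08 to 0.28) untreated.

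PRKAB2, which encodes the beta 2 subunit, had 805 normalized counts with nutlin-3a and 458 untreated in LIMA1 shRNA cells, and 779 with nutlin-3a and 497 untreated in control shRNA cells. It was higher with nutlin-3a in both lines, by 0.81 (0.64 to 0.98) in LIMA1 shRNA cells and 0.65 (0.49 to 0.81) in control shRNA cells, without reaching 1. Its differences between lines were 0.047 (-0.099 to 0.19) with nutlin-3a, negative under equal library totals, and -0.12 (-0.30 to 0.07) untreated. Per kb of the longest transcript, PRKAB1 made up 77.4% of the summed beta subunit level in LIMA1 shRNA cells with nutlin-3a and 75.04% in control shRNA cells with nutlin-3a. Untreated, it made up 70.1% in LIMA1 shRNA cells and 66.8% in control shRNA cells. The shares depend on the length used. With median transcript lengths they were 81.8% in LIMA1 shRNA cells and 79.8% in control shRNA cells with nutlin-3a. Untreated, they were 75.5% in LIMA1 shRNA cells and 72.5% in control shRNA cells.

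Of 11 listed genes for the other AMPK subunits and upstream kinases, 10 were measured, and 0 of 10 reached a difference of 1 in either direction in any of the 5 contrasts. Their median nutlin-3a difference was 0.047 in LIMA1 shRNA cells and 0.12 in control shRNA cells. Among all measured genes, 13.4% reached a difference of 1 either way with nutlin-3a in LIMA1 shRNA cells and 11.2% in control shRNA cells. Between lines 3.2% did with nutlin-3a and 3.08% untreated, and 2.09% did in the response difference. Few or none of 10 genes would be called at these shares. PRKAA1, a catalytic subunit gene, was at 1835 normalized counts with nutlin-3a and 2376 untreated in LIMA1 shRNA cells, and at 1656 with nutlin-3a and 2055 untreated in control shRNA cells, differences of -0.37 and -0.31. The gamma subunit gene PRKAG2 was at 0.25 in both lines. STRADA, which encodes a pseudokinase partner of the AMPK kinase LKB1, had the list's highest differences, 0.88 in LIMA1 shRNA cells and 0.54 in control shRNA cells.

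ULK1, the autophagy-initiating kinase, was at 1426 normalized counts with nutlin-3a and 1261 untreated in LIMA1 shRNA cells, and at 1312 with nutlin-3a and 933 untreated in control shRNA cells. Untreated control shRNA cells again held the lowest value, and the other 3 libraries were close together. The nutlin-3a difference was 0.18 (0.07 to 0.29) in LIMA1 shRNA cells and 0.49 (0.37 to 0.61) in control shRNA cells. LIMA1 shRNA cells were higher by 0.12 (0.01 to 0.23) with nutlin-3a and by 0.43 (0.31 to 0.56) untreated, and the response difference was -0.31 (-0.48 to -0.15). Of the other 11 autophagy initiation genes, such as ULK2, BECN1 and ATG13, 0 reached a difference of 1 in any contrast, and their median nutlin-3a differences were 0.015 in LIMA1 shRNA cells and 0.11 in control shRNA cells. Over the contrasts, between 2.09% and 13.4% of all measured genes reached a difference of 1 either way.

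DRAM1 encodes a lysosomal membrane protein that links p53 to autophagy. It had 1057 normalized counts with nutlin-3a and 251 untreated in LIMA1 shRNA cells, and 1226 with nutlin-3a and 344 untreated in control shRNA cells. Both nutlin-3a values were well above both untreated ones, with differences of 2.07 (1.87 to 2.28) in LIMA1 shRNA cells and 1.83 (1.66 to 2.01) in control shRNA cells. DRAM1 was the 1 gene of the 10 that was lower with LIMA1 shRNA than with control shRNA in both treatments with intervals below 0, by -0.21 (-0.34 to -0.09) with nutlin-3a and -0.45 (-0.69 to -0.22) untreated. The response difference was 0.24 (-0.02 to 0.50).

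TP53INP1, whose product binds LC3-family proteins and p53-regulating kinases, was at 2731 normalized counts with nutlin-3a and 177 untreated in LIMA1 shRNA cells, and at 2326 with nutlin-3a and 206 untreated in control shRNA cells. Both nutlin-3a values lay above both untreated ones. The nutlin-3a difference was 3.94 (3.73 to 4.17) in LIMA1 shRNA cells and 3.49 (3.29 to 3.70) in control shRNA cells. LIMA1 shRNA cells differed from control shRNA cells by 0.23 (0.15 to 0.31) with nutlin-3a and by -0.22 (-0.51 to 0.07) untreated, and the response difference was 0.45 (0.16 to 0.75). In GENCODE 29 TP53INP1 lies within NDUFAF6 on the opposite strand. NDUFAF6 had 125 normalized counts with nutlin-3a and 172 untreated in LIMA1 shRNA cells, and 133 with nutlin-3a and 179 untreated in control shRNA cells. Its part in the TP53INP1 values was not tested.

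SPATA18, also called Mieap, encodes a p53-inducible protein of mitochondrial quality control. It was at 1672 normalized counts with nutlin-3a and 82.1 untreated in LIMA1 shRNA cells, and at 1561 with nutlin-3a and 82.9 untreated in control shRNA cells. The lines were nearly level within each treatment, and the treatments lay far apart. The ratios were 20.4 (16.3 to 25.7) in LIMA1 shRNA cells and 18.8 (15.2 to 23.6) in control shRNA cells. With log2 differences of 4.33 and 4.22, SPATA18 had the largest nutlin-3a response of the 10 genes in both lines, the 47th and 45th highest of all measured genes. Its differences between lines were 0.099 (-0.0030 to 0.20) with nutlin-3a and -0.014 (-0.46 to 0.43) untreated. It had the lowest level per kb of the 10 genes in both untreated libraries.

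Between lines, 0 of the 10 genes reached a difference of 1 or -1 with nutlin-3a, where 1.26% of all measured genes reached 1 and 1.94% reached -1 (3.2% together). In untreated cells 1 of 10, SESN2, was higher, where 1.04% of all measured genes reached 1 and 2.05% reached -1 (3.08% together). The median of the 10 genes was 0.18 with nutlin-3a and 0.057 untreated, against 0.028 and 0.024 for all measured genes. For the response difference, 1 of 10 genes (SESN2) reached -1, where 0.816% of all measured genes did and 1.27% reached 1 (2.09% together), and the median was 0.12 against 0.0087 for all. The LIMA1 shRNA difference in untreated cells and the nutlin-3a response in control shRNA cells share the untreated control shRNA library, and a low value there moves both up.

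**Figure D3:**
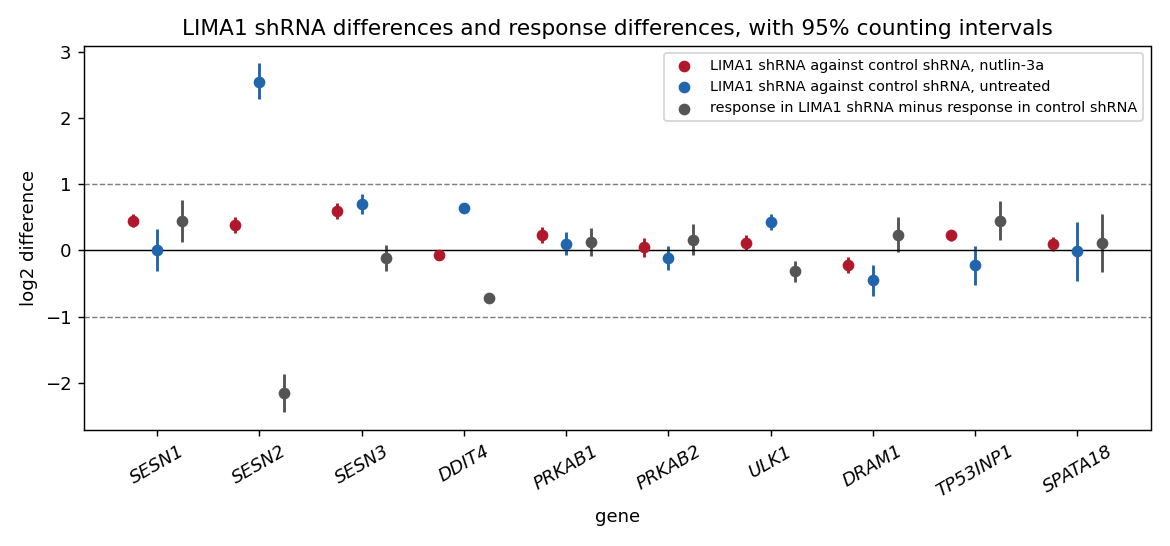
Log2 differences of LIMA1 shRNA against control shRNA cells with nutlin-3a (red) and untreated (blue), and of the 2 nutlin-3a responses (grey, LIMA1 shRNA minus control shRNA), with 95% counting intervals. SESN2 lies at 0.39, 2.54 and -2.15, DDIT4 at -0.074, 0.64 and -0.71, and the other 8 genes stay within 1 of 0.

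A list of 14 ATF4 and stress response genes is set beside SESN2. Of these, 7 reached 1 in untreated LIMA1 shRNA cells and 0 reached -1, with a median of 1.05. Of all measured genes 1.04% reached 1 and 2.05% reached -1 there, with a median of 0.024. CHAC1, a glutathione-degrading enzyme, was at 602 normalized counts in LIMA1 shRNA cells and 37.7 in control shRNA cells, and DDIT3, the stress factor CHOP, at 679.8 and 124. The secreted glycoprotein gene STC2 was at 2950 in LIMA1 shRNA cells and 432 in control shRNA cells, and ATF4 itself at 7783 and 4580.1. With nutlin-3a the list's median between lines was 0.28, and 2 of 14 genes, STC2 (1.41) and PHGDH (1.27), were higher by at least 1. For all measured genes the share was 1.26% and the median 0.028.

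The nutlin-3a response of the list ran the other way from SESN2 in LIMA1 shRNA cells. There SESN2 was higher by 0.84, while 0 of 14 genes reached 1 and 7 reached -1, with CHAC1 at -2.80, STC2 at -2.65 and MTHFD2 at -1.85 and a median of -1.20. In control shRNA cells SESN2 was higher by 2.99, while 0 of 14 reached 1 and the list's median was 0.098. There 3 reached -1, PHGDH (-1.82), STC2 (-1.29) and MTHFD2 (-1.01). Of all measured genes 6.08% reached -1 in LIMA1 shRNA cells (median -0.022) and 5.64% in control shRNA cells (median -0.017). The response difference was -1 or lower for 5 of 14 genes, among them CHAC1 (-3.37), DDIT3 (-1.95) and STC2 (-1.36), with a median of -0.84. For all measured genes the share was 0.816% and the median 0.0087. The list's untreated difference between lines, its nutlin-3a difference in LIMA1 shRNA cells and its response difference share the untreated LIMA1 shRNA library. A high value there moves the first up and the others down, so they are not separate results. The part of the list genes' regulators in the SESN2 and DDIT4 values was not tested.

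**Figure D4:**
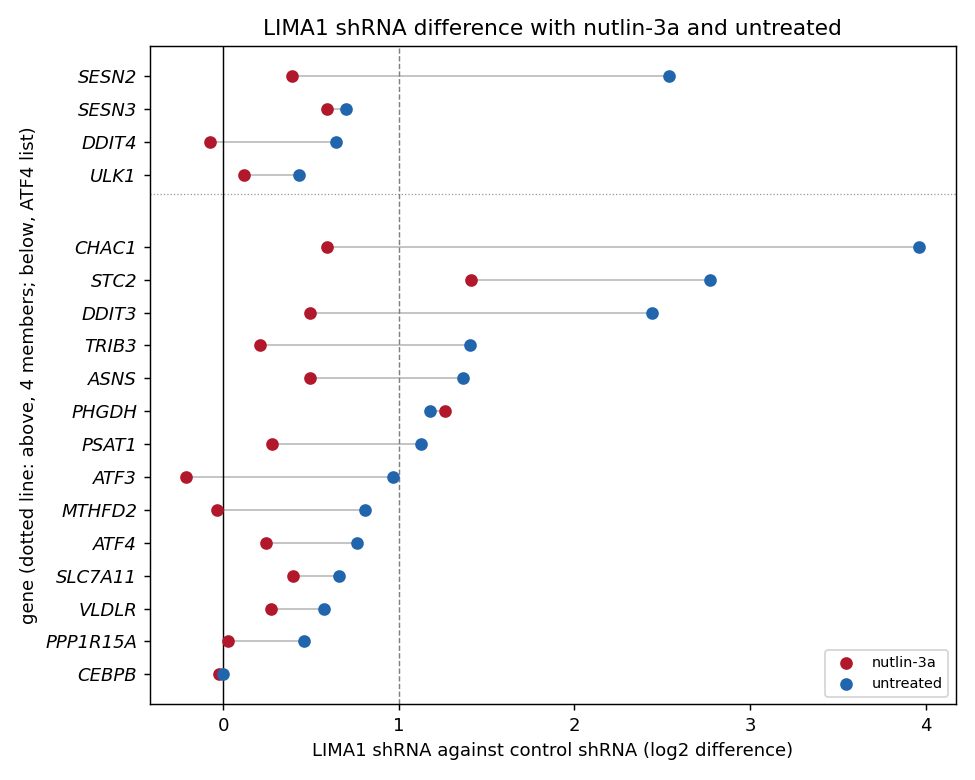
Log2 difference of LIMA1 shRNA against control shRNA cells for SESN2, SESN3, DDIT4 and ULK1 (above the dotted line) and the 14 genes of the ATF4 list (below it), with nutlin-3a in red and untreated in blue. SESN2 (0.39 with nutlin-3a, 2.54 untreated) spans a range like that of DDIT3 (0.49 and 2.44), and SESN3 keeps nearly 1 value (0.59 and 0.70).

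Signalling and autophagy genes around the 10 were counted in the same way. Over 6 lists that hold other AMPK genes, amino acid sensing genes, mTORC1 and TSC genes, and autophagy and mitophagy genes, 90 genes were measured. With nutlin-3a, 5 of the 90 were higher and 1 lower by at least 1 in LIMA1 shRNA cells (median 0.12), and 0 of 90 either way in control shRNA cells (median 0.22). Of all measured genes 7.29% were higher and 6.08% lower by that much in LIMA1 shRNA cells, and 11.2% differed either way in control shRNA cells. Between lines, 0 of 90 reached a difference of 1 with nutlin-3a or untreated, with medians of 0.027 and 0.026, and 0 of 90 had a response difference of that size (median 0.0028). Among all measured genes, 3.2% differed that much either way between lines with nutlin-3a (median 0.028) and 3.08% untreated (median 0.024). For the response difference the share was 2.09% (median 0.0087).

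In the amino acid sensing list, where sestrins act, 25 genes were measured, with median nutlin-3a differences of 0.14 in LIMA1 shRNA cells and 0.22 in control shRNA cells. RRAGD, a Rag GTPase that recruits mTORC1 to lysosomes, was at 234 normalized counts with nutlin-3a and 88.1 untreated in LIMA1 shRNA cells, and at 173 with nutlin-3a and 87.7 untreated in control shRNA cells. Its differences were 1.40 (1.05 to 1.78) and 0.97 (0.61 to 1.36), so it passed the size for a call in LIMA1 shRNA cells and narrowly missed it in control shRNA cells. WDR24, a GATOR2 subunit whose values held fractions of fragments, was at -1.01 in LIMA1 shRNA cells and -0.52 in control shRNA cells. Of 9 measured mTORC1 and TSC genes 0 reached 1, with medians of 0.11 in LIMA1 shRNA cells and 0.16 in control shRNA cells. Among all measured genes 7.29% reached 1 in LIMA1 shRNA cells and 5.54% in control shRNA cells. The mTOR-binding inhibitor DEPTOR was at 160 with nutlin-3a and 138 untreated in LIMA1 shRNA cells, and at 202 with nutlin-3a and 107 untreated in control shRNA cells, differences of 0.21 (-0.13 to 0.56) and 0.90 (0.57 to 1.25).

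Among 28 measured genes of autophagosome formation and cargo receptors, 3 were higher by at least 1 with nutlin-3a in LIMA1 shRNA cells and 0 in control shRNA cells. The median was 0.27 in each line. Of all measured genes 7.29% reached 1 in LIMA1 shRNA cells and 5.54% in control shRNA cells. OPTN, a cargo receptor, was at 1043 normalized counts with nutlin-3a and 477 untreated in LIMA1 shRNA cells, and at 1118 with nutlin-3a and 620.2 untreated in control shRNA cells (differences 1.13 and 0.85). WIPI1, which binds the forming autophagosome membrane, was at 1.09 in LIMA1 shRNA cells and 0.78 in control shRNA cells, and MAP1LC3A, an LC3 gene with 22.8 to 63.5 normalized counts, at 1.20 and 0.81. Between lines, OPTN was at -0.10 (-0.23 to 0.03) with nutlin-3a and -0.38 (-0.55 to -0.21) untreated, WIPI1 at 0.033 (-0.15 to 0.22) and -0.28 (-0.53 to -0.03), and MAP1LC3A at -0.24 (-0.81 to 0.31) and -0.63 (-1.47 to 0.13). Of 7 measured mitophagy genes 1 was higher in LIMA1 shRNA cells, PINK1, the kinase that marks damaged mitochondria, at 1.14 against 0.76 in control shRNA cells; its values held fractions of fragments. The list's medians were 0.14 in LIMA1 shRNA cells and -0.076 in control shRNA cells. For all measured genes the medians were -0.022 and -0.017, and the shares of 7.29% and 5.54% apply to the mitophagy list too.

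**Figure D5:**
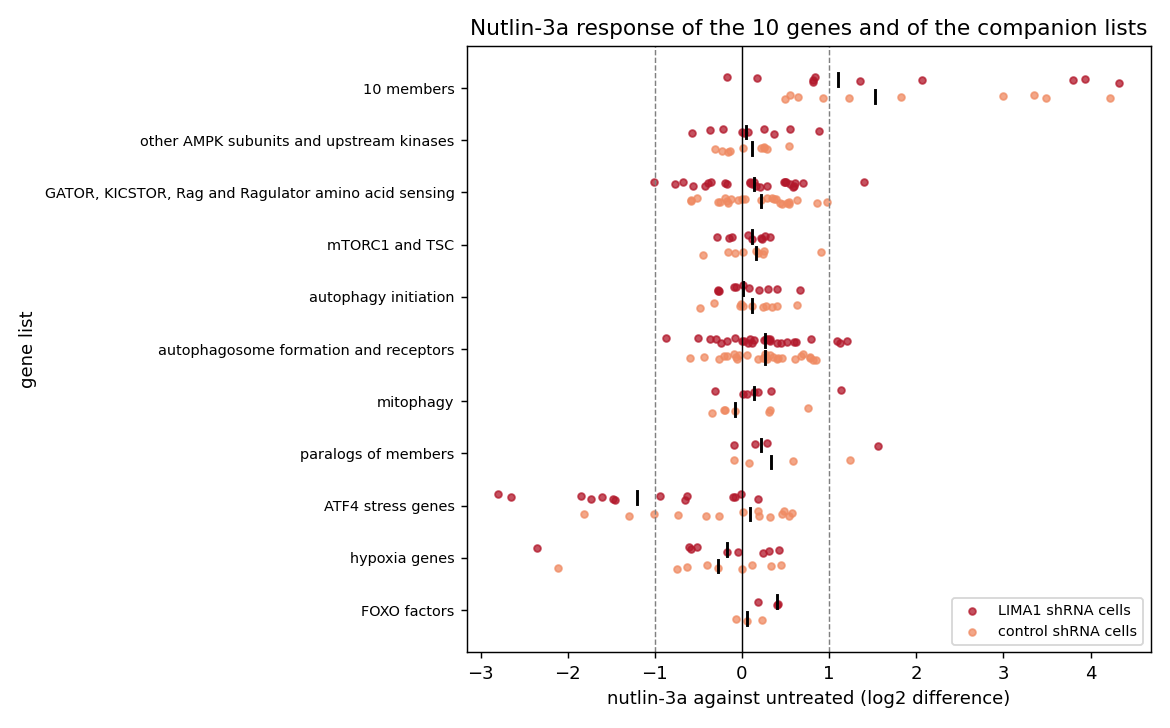
Log2 difference between nutlin-3a and untreated cells for the 10 genes and for the measured genes of the 10 companion lists, 1 point per gene, with LIMA1 shRNA cells (dark red) above control shRNA cells (orange) and black ticks at the medians. The 10 genes reach 4.33, while the AMPK, amino acid sensing, mTORC1 and autophagy lists stay between -1.01 and 1.40.

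The genes most like each of the 10 were found by the distance between centred log2 profiles over the 4 libraries, among 10519 genes with a mean of at least 100, small RNA and lnc models left out. With 4 libraries many genes lie close, so the distance describes these libraries only. SPATA18 was nearest to ADAMTS7 (0.20) and to MDM2 (0.27), itself a p53 target. CD82 was nearest to both SESN1 (0.21) and TP53INP1 (0.12), followed by DSC3 for SESN1 (0.26) and ANK1 for TP53INP1 (0.14). PRKAB1 lay nearest to CROT (0.017) and FBXO10 (0.025), PRKAB2 to CYHR1 (0.038) and PHYKPL (0.043), and SESN3 to RAB26 (0.070) and STON2 (0.094). ULK1 lay nearest to ZNF503 (0.028) and UBL3 (0.041), DRAM1 to LTBP2 (0.057) and RHOD (0.12), and DDIT4 to JMJD7 (0.046) and MTX1 (0.13). ZNF503, LTBP2 and JMJD7 held fractions of fragments.

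SESN2 had no close neighbour. Its nearest genes were the neurofilament gene NEFL at 0.83 and the interferon-inducible IFI16 at 1.10. NEFL was at 4448 normalized counts with nutlin-3a and 1505 untreated in LIMA1 shRNA cells, and at 2410.4 with nutlin-3a and 540.2 untreated in control shRNA cells. The nutlin-3a difference of NEFL was 1.56 (1.48 to 1.65) in LIMA1 shRNA cells and 2.16 (2.03 to 2.29) in control shRNA cells. Its values lay up to 0.29 of a fragment from a whole number, so fragments may be divided between gene models.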

How the data were processed

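RNA sequencing was compared in 4 A549 libraries, 1 per group, and sample titles gave the groups (titles say si, protocols shRNA). Per the submitters' processing notes, Cuffnorm 2.2.1, Bowtie2 2.0.12, bcl2fastq 1.8.3 and hg19 were used, in roles and an order that are not stated, and no gene annotation was given in the sources used here. From its values, the signal per gene deposited by the authors is a fragment count scaled by a single library-wide factor (1 fragment is worth 0.943 to 1.07) and not by gene length. Between 0.5 and 1000 fragments, 85.5% to 86.3% of values lay within 0.1 of a whole number, under the 95% needed to treat them as reads, so no count test was run. Of 9716 measured genes that could be checked, 1791 had values that were not whole.

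Differences were taken on log2(normalized count + 1), with a call at 1 or -1. Each of the 10 genes is named; so are up to 3 called genes per list and contrast, the 2 nearest genes, LIMA1, CDKN1A and cell markers. Other list genes, such as PRKAA1, PRKAG2, STRADA, DEPTOR, ATF4, ULK2, BECN1 and ATG13, were named after their values were seen. Genes, lists and contrasts were chosen with earlier results of these data known. Transcript lengths came from GENCODE 29 and upstream sequences from RefSeq GRCh38.p14. Steps were tested on simulated data; scipy 1.17.1, pandas 2.3.3 and numpy 2.4.6 ran under Python 3.11.15.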

Additional observations from a re-analysis of the deposited data

Results flagged for a closer look

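DDIT4 was picked out because its nutlin-3a difference had opposite signs in the 2 lines, -0.17 in LIMA1 shRNA cells and 0.55 in control shRNA cells. For the same reason its LIMA1 shRNA difference, -0.074 with nutlin-3a and 0.64 untreated, was picked out. DDIT3, of the ATF4 list, had a nutlin-3a difference of -1.48 in LIMA1 shRNA cells and 0.46 in control shRNA cells. In each case both counting intervals lay on their own side of 0, but with 1 library per group the difference was not tested.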

How the results depend on the processing

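The counts of the 10 genes called higher or lower were the same under 3 other pseudocounts and 3 library scalings. The 2 filters keep all 10 genes and leave their differences as they are, so filtering could not alter these counts. The counts changed with the size for a call. At 1.5-fold, 8 genes were higher with nutlin-3a in LIMA1 shRNA cells and 8 in control shRNA cells, against 5 and 6 at 2-fold. At 4-fold, 4 were higher with nutlin-3a in each line. Between lines at 1.5-fold, 1 was higher in LIMA1 shRNA cells with nutlin-3a and 3 untreated, against 0 and 1 at 2-fold. A lower response in LIMA1 shRNA cells was seen for 2 genes at 1.5-fold, against 1 at 2-fold. Of 300 alternative values of single genes, 296 kept their sign. The 4 that did not were SESN1 untreated under the 3 scalings (-0.037, -0.0040 and -0.044) and PRKAB2 with nutlin-3a under equal totals (-0.0026). Another 7 lay outside their counting interval, at DDIT4 under scalings and at SESN2 and SPATA18 with a pseudocount of 30. Upper-quartile scaling moved the DDIT4 nutlin-3a difference in LIMA1 shRNA cells from -0.17 to -0.092. Equal totals moved the DDIT4 difference between lines with nutlin-3a from -0.074 to -0.12. The scalings moved the median of all genes by at most 0.076.

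Background counts depended more on the settings. Genes called either way in the nutlin-3a response numbered 1704 in LIMA1 shRNA cells and 1425 in control shRNA cells; without a filter they numbered 6104 and 4545, at 1.5-fold 3852 and 3322, and at 4-fold 548 and 509. Between lines 408 were called with nutlin-3a and 393 untreated; means of at least 100 left 171 and 156, a pseudocount of 30 left 181 and 155, no filter gave 4136 and 2982, 1.5-fold 1236 and 1212, and 4-fold 67 and 65. Response differences of 1 or more numbered 266; they were 81 with means of at least 100, 147 and 84 with pseudocounts of 10 and 30, 4929 without a filter, 850 at 1.5-fold, 68 at 4-fold and, chosen after seeing the data, 127 without genes whose values were not whole. Fewer genes tested, or another size, changes such counts by construction. So does a larger pseudocount where a pair of libraries is compared, because it can only shrink the difference. For response differences the effect of pseudocounts is not fixed in that way, and its cause was not tested. With 1 library per group no replicate could be left out. No paired analysis was possible because each group holds 1 library. Depth limits SPATA18 most, with 83 to 88 fragments in untreated cells.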

Other observations

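Relatives of the 10 genes were measured as well. TP53INP2, the autophagy-related paralog of TP53INP1, was at 1265 normalized counts with nutlin-3a and 429 untreated in LIMA1 shRNA cells, and at 890.4 with nutlin-3a and 375 untreated in control shRNA cells, differences of 1.56 (1.40 to 1.72) and 1.24 (1.08 to 1.42). It was the 1 gene of 4 measured paralogs past 1, and the medians of the 4 were 0.22 in LIMA1 shRNA cells and 0.33 in control shRNA cells. Of all measured genes 7.29% reached 1 in LIMA1 shRNA cells and 5.54% in control shRNA cells. DDIT4L, the paralog of DDIT4, was at 0.29 (0.10 to 0.48) in LIMA1 shRNA cells and 0.58 (0.39 to 0.78) in control shRNA cells. DRAM2 was at -0.10 (-0.28 to 0.08) in LIMA1 shRNA cells and -0.087 (-0.27 to 0.10) in control shRNA cells, and ULK3 at 0.15 (0.01 to 0.29) in LIMA1 shRNA cells and 0.076 (-0.05 to 0.21) in control shRNA cells.

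Of 9 measured hypoxia genes, a group to which DDIT4 also belongs by its known induction in low oxygen, 0 were higher and 1, the carbonic anhydrase CA9, was lower by at least 1 with nutlin-3a, at -2.36 in LIMA1 shRNA cells and -2.11 in control shRNA cells. Of all measured genes 6.08% reached -1 in LIMA1 shRNA cells and 5.64% in control shRNA cells. The list's medians were -0.18 in LIMA1 shRNA cells and -0.28 in control shRNA cells. Between lines the list's medians were 0.19 with nutlin-3a, where CA9 was at -1.15, and 0.091 untreated. Of 3 measured FOXO genes, which encode known regulators of SESN3, 0 reached 1 in any contrast, where 1.04% to 7.29% of all measured genes did. Between lines the FOXO genes ranged with nutlin-3a between -0.062 (FOXO4) and 0.36 (FOXO1), and untreated between -0.53 (FOXO4) and 0.043 (FOXO3).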
